A study of Homo sapiens with 2 samples.

Results

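The miR-181 family was examined in small RNA libraries of MDA-MB-231-IV2-1 cells, a highly metastatic subline that was isolated in mice from the human triple-negative breast cancer line MDA-MB-231. Cells of this 1 subline were transfected for 48 h with either a control siRNA (N.C) or a pool of siRNAs against the long non-coding RNA LOC550643, and 1 library was sequenced from each condition. Both conditions therefore share the cell line and the transfection and differ in the siRNA, and the knockdown was transient. The comparison asks which miRNAs differed when LOC550643 was targeted. LOC550643 itself is not a mature miRNA, and its level in these cells was not analysed here. Family members were taken as all rows named miR-181a, miR-181b, miR-181c or miR-181d, from either arm of the hairpin, which gave 7 of the 425 miRNAs listed in either library. The rows are hsa-miR-181a-5p, hsa-miR-181a-3p, hsa-miR-181a-2-3p, hsa-miR-181b-5p, hsa-miR-181b-3p, hsa-miR-181c-3p and hsa-miR-181d, written below without the species prefix, and all 7 were listed in both libraries. The labels give the parental line MDA-MB-231 as the cell line and name the IV2 subline in the sample titles.

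A miRNA is cut from a hairpin precursor whose 5′ and 3′ arms can each yield a mature strand of about the length of an siRNA (the 5p and 3p products). One strand is loaded into an Argonaute protein and pairs with target transcripts mainly through its seed, bases 2 to 8 from the 5′ end. The miR-181 family is conserved among vertebrates, is best known as a regulator of the strength of T cell receptor signalling and of lymphocyte development, and has been studied in epithelial tumours as a family that responds to TGF-β.

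In the human genome (GRCh38) the family is encoded by 6 hairpins in 3 pairs, and the paired hairpins lie close together. MIR181B1 (chr1:198858873-198858982) and MIR181A1 (chr1:198859044-198859153) lie on the minus strand of chromosome 1, with 61 bases between them, where GENCODE 29 places an intron of MIR181A1HG, a lincRNA. MIR181A2 (chr9:124692442-124692551) and MIR181B2 (chr9:124693710-124693798) lie on the plus strand of chromosome 9, 1158 bases apart, in an intron of MIR181A2HG and, on the opposite strand, of the protein-coding gene NR6A1. MIR181C (chr19:13874699-13874808) and MIR181D (chr19:13874875-13875011) lie on the plus strand of chromosome 19, with 66 bases between them, in an intron of NANOS3. The main products of the pairs on chromosomes 1 and 9 are the same, so that a read of miR-181a-5p or miR-181b-5p cannot be given to one locus. The 3p products of MIR181A1 and MIR181A2 differ and can be told apart.

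The sequences on which the results turn are given 5′ to 3′ from RefSeq (GRCh38.p14), with the seed in capitals, first the pair of 5p products that hold most of the family and then the 3p products that were listed.
miR-181a-5p: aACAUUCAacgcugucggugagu
miR-181b-5p: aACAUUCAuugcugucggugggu
miR-181a-3p: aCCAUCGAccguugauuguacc
miR-181a-2-3p: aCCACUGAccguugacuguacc
miR-181b-3p: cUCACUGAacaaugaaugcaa
miR-181c-3p: aACCAUCGaccguugaguggac

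The 5p products of all 6 hairpins carry the same seed, ACAUUCA. Counted from 1 at the 5′ end of miR-181a-5p, miR-181b-5p differs from it at 3 positions, A9U, C10U and A21G, all outside the seed. With miR-181b-5p as the reference, miR-181d-5p differs from it at 1 position, C12U. The 3p products share no common seed. Between miR-181a-3p and miR-181a-2-3p there are 3 differences, U5C, C6U and U16C, of which U5C and C6U lie in the seed. In miR-181c-3p the first 15 bases of miR-181a-3p are found at bases 2 to 16, and this shift by 1 base gives it a seed of its own. Of the 10 different mature products in the RefSeq table, 6 have a row of the same name in the libraries, and miR-181b-2-3p, miR-181c-5p, miR-181d-5p and miR-181d-3p do not. The seventh row is named miR-181d without an arm and was kept under that name.

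The hairpins of miR-181a are shown with both mature products in capitals, since their 3p arms are what tells the loci apart.
MIR181A1: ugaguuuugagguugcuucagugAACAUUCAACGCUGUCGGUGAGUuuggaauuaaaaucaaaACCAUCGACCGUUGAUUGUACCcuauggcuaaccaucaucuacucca
MIR181A2: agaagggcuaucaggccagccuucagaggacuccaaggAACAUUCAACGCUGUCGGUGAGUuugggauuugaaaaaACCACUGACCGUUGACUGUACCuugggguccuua

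Values are RPM, the reads of a miRNA scaled to a total of 1000000 reads assigned to miRNAs. How many mismatches the authors' tool allowed is not given in the sources used here, so that the split between products that differ at few bases, such as miR-181b-5p and miR-181d or miR-181a-5p and miR-181b-5p, carries this uncertainty. Most low values of each library lay on steps of 1 read, worth 5.29 RPM in control cells and 2.03 RPM in knockdown cells, from which the depth was estimated at 189034 and 491541 reads on miRNAs. All family values lay at whole numbers of reads, the farthest 0.0047 read away. Intervals are 95% Clopper-Pearson intervals of these estimated reads. They cover counting error only, because 1 library per condition shows nothing of the variation between cultures, and for the same reason no p-value is given. At 3 reads or fewer, 15.9 RPM in control cells and 6.10 RPM in knockdown cells, a value was treated as being at the floor of detection. As a limited check of the cell type, short lists of miRNAs were looked up. All 5 miRNAs of a list for MDA-MB-231 (miR-221-3p, miR-222-3p, miR-100-5p, miR-21-5p and miR-125b-5p) were listed in both libraries, for which 1 read is enough. They summed to 365344 RPM in control cells and 310180 RPM in knockdown cells, mainly miR-100-5p and miR-21-5p. This list is not complete. It left out miR-148a-3p, number 1 in both libraries (195101 and 243993 RPM). Also left out were miR-10b-5p (18.5 and 28.5 RPM) and miR-155-5p (15.9 and 10.2 RPM), which were low. Such lists do not establish the cell type. The 6 blood cell miRNAs searched for (such as miR-223-3p) were listed in neither library. However, miR-486-5p, which was not on the blood list, was at 74.1 RPM in control cells and 89.5 RPM in knockdown cells. The 7 epithelial miRNAs searched for (such as miR-200c-3p) summed to 10.6 RPM in control cells and 8.14 RPM in knockdown cells, with 5 of the 7 at 0 in both.

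The leading members of the family, miR-181a-5p and miR-181b-5p, stood in a different proportion in the libraries, with relatively less miR-181b-5p in knockdown cells. Whether the total or either member alone differed by more than counting error depended on how the libraries were scaled against each other. The summed family value was 1524 RPM in control cells (288 reads, 1353 to 1710 RPM) and 1444 RPM in knockdown cells (710 reads, 1340 to 1555 RPM). This is 0.152% and 0.144% of all miRNA RPM. Knockdown over control, the log2 fold change was -0.08, with a counting interval of -0.28 to 0.13, so that no difference in the total was detectable when both libraries were scaled to the same total. The family total turned to the other sign when the libraries were scaled by the median ratio of the miRNAs listed in both libraries (0.12, -0.08 to 0.32). Under this scaling the median over the 425 miRNAs, rows of few reads included, went from -0.20 to -0.0019. Scaled by the 75th percentile, it was 0.21 (0.0060 to 0.41), and that median was 0.08.

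In control cells the leading members, miR-181a-5p and miR-181b-5p, stood at nearly the same level. The value of miR-181a-5p was 598 RPM (113 reads, 493 to 719 RPM) and that of miR-181b-5p was 587 RPM (111 reads, 483 to 707 RPM), and their intervals overlapped almost fully. In knockdown cells miR-181a-5p was at 699.8 RPM (344 reads, 628 to 778 RPM). There miR-181b-5p was at 378 RPM (186 reads, 326 to 437 RPM), and the intervals no longer overlapped. Ranked among all miRNAs of a library, miR-181a-5p was number 59 in both, and miR-181b-5p was number 63 in control cells and number 76 in knockdown cells.

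**Figure D1:**
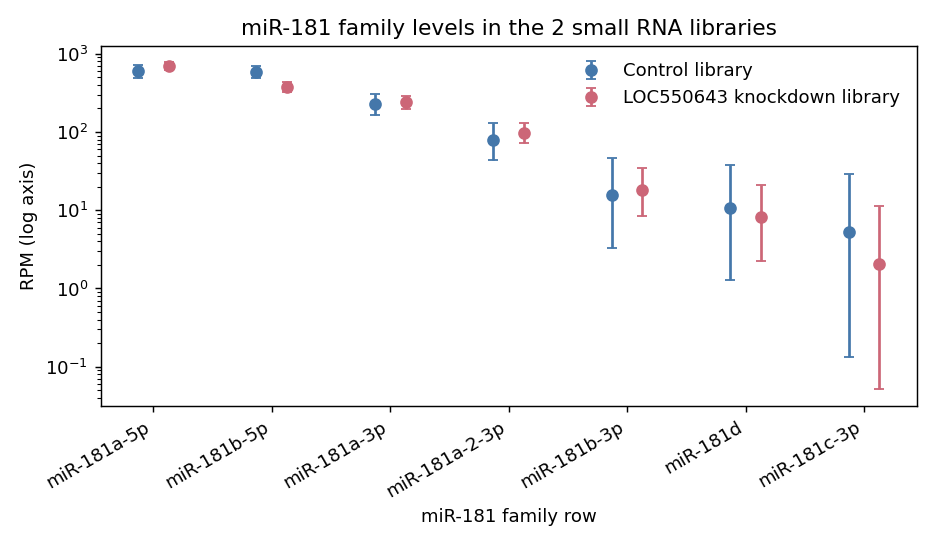
RPM (log axis) of each miR-181 row in control cells (blue) and the LOC550643 knockdown library (red). Bars are 95% counting intervals of 1 library each. With both libraries scaled to the same total, their intervals lie apart only for miR-181b-5p, at 587 and 378 RPM.

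The 3p products were the next in order. miR-181a-3p, from chromosome 1, was at 227 RPM in control cells (43 reads, 165 to 306 RPM) and at 240.1 RPM in knockdown cells (118 reads, 199 to 287 RPM). miR-181a-2-3p, from chromosome 9, was at 79.4 RPM (15 reads, 44.4 to 131 RPM) and 97.7 RPM (48 reads, 72.0 to 129 RPM). Each stood apart from its neighbours above and below in knockdown cells. In control cells the interval of miR-181a-2-3p overlapped that of miR-181b-3p below it.

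The other 3 rows rested on few reads. miR-181b-3p, from the hairpin on chromosome 1, was at 15.9 RPM (3 reads) and 18.3 RPM (9 reads). The row miR-181d was at 10.6 RPM (2 reads) and 8.14 RPM (4 reads). The lowest row was miR-181c-3p, with 1 read in each library, which is 5.29 RPM and 2.03 RPM. The intervals of these 3 rows overlapped each other in both libraries, so that their order was not resolved, and together miR-181c-3p and miR-181d made up 1.04% of the family in control cells and 0.704% in knockdown cells. Nearly all of the family signal was thus in rows named miR-181a or miR-181b.

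The make-up of the family differed more than its total. miR-181a-5p held 39.2% of the family in control cells (33.6 to 45.1%) and 48.5% in knockdown cells (44.7 to 52.2%), and these intervals overlapped slightly. miR-181b-5p held 38.5% (32.9 to 44.4%) and 26.2% (23.0 to 29.6%), with intervals apart. The share of miR-181a-3p was 14.9% and 16.6%, and that of miR-181a-2-3p was 5.21% and 6.76%, both with overlapping intervals. Overlap of intervals does not by itself show that a share was the same, and no interval of the difference in share was taken. All miR-181a rows together made up 59.4% of the family in control cells (53.5 to 65.1%) and 71.8% in knockdown cells (68.4 to 75.1%). Shares sum to 100%, so that a lower share of one member raises those of the others.

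**Figure D2:**
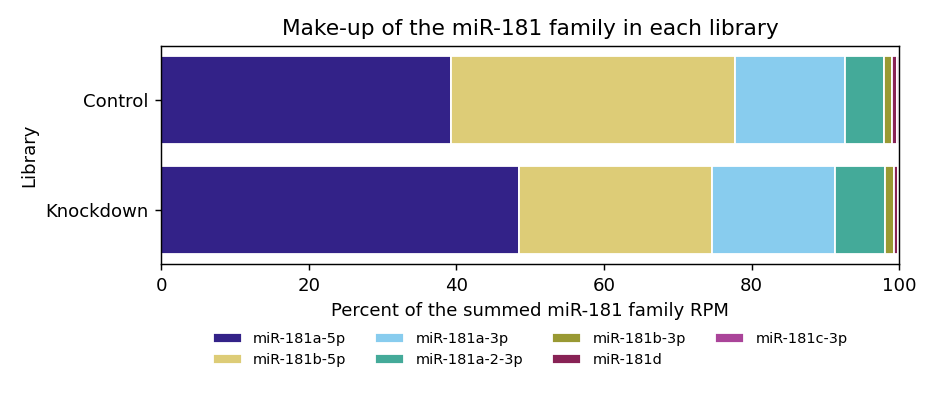
Percent of the summed miR-181 RPM held by each row in the control and knockdown cells. miR-181b-5p takes 38.5% of the upper bar and 26.2% of the lower one, and the rows of miR-181b-3p, miR-181d and miR-181c-3p are thin slices at the right end.

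Between the libraries, 4 of the 7 members were higher under the knockdown and 3 were lower, by sign alone. The share of all 425 miRNAs on each side was not taken, so that these counts are not read as a result. In control cells miR-181b-3p, miR-181d and miR-181c-3p had 3 reads or fewer, and their signs are not resolved. On the log2(RPM + 1) scale, the median of the 7 fold changes was 0.08, against -0.20 over all 425 miRNAs. Only 201 of the 425 had more than 3 reads in both libraries, and 1 read is worth 5.29 RPM in control cells but 2.03 RPM in knockdown cells. The value of -0.20 thus includes rows that reflect this unequal depth. At a mean of 100 to 1000 RPM the median was -0.12. None of the 7 was more than 2-fold higher, where 17.9% of all 425 miRNAs were, and 1 of the 7, miR-181c-3p, was more than 2-fold lower, where 27.3% were. This 1 call rests on a single read in each library and is not a measured difference. Of the 4 members with more than 3 reads in both libraries, none passed 2-fold. In the 124 miRNAs whose mean reached 100 RPM, the 2-fold limit was passed upwards by 2.42% and downwards by 5.65%, and by none of the 3 members at this level (miR-181a-5p, miR-181b-5p and miR-181a-3p). At 1.5-fold, where 22.4% of all miRNAs were higher and 35.3% lower, no member was higher and 2 were lower, miR-181b-5p and miR-181c-3p.

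The counting interval of the log2 fold change was below 0 for 1 member, miR-181b-5p, where 12.5% of all miRNAs had an interval below 0 and 5.88% one above 0. Its log2 fold change was -0.63 (interval -0.98 to -0.28), a value 0.644 times that of control cells (0.507 to 0.823). Of the 201 miRNAs that exceeded 3 reads in each library, 24.9% had an interval below 0 and 10.9% one above 0, so that an interval of this kind was common at such depths. The interval of miR-181b-5p was -0.78 to -0.08 when scaled by the median ratio, where 8.24% of all miRNAs had an interval below 0, and reached 0 when scaled by the 75th percentile (-0.70 to 0.00097). For miR-181a-5p the log2 fold change was 0.23 (-0.08 to 0.55), for miR-181a-3p it was 0.08 (-0.44 to 0.62) and for miR-181a-2-3p it was 0.30 (-0.56 to 1.24). All 3 intervals include 0. That of miR-181a-5p lay above 0 when scaled by the median ratio (0.12 to 0.75, where 12% of all miRNAs lay above 0) or by the 75th percentile (0.20 to 0.83, where 12.9% did), while those of miR-181a-3p and miR-181a-2-3p still included 0. For miR-181b-3p and miR-181d the control value was at or under the floor. Their log2 fold changes were 0.20 (-1.80 to 2.73) and -0.34 (-3.18 to 3.09), and a difference was not detectable at this depth. For miR-181c-3p, at or under the floor in both libraries, no fold change is given.

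Among the 73 miRNAs with a mean of 100 to 1000 RPM, the median log2 fold change was -0.12, with quartiles of -0.55 and 0.28. miR-181b-5p lay below the lower quartile, with 15 of these miRNAs lower, and miR-181a-5p lay inside the quartiles, with 20 higher. The miRNAs most like miR-181a-5p over the 2 libraries, by the distance between their log2(RPM + 1) values, were miR-128 at 598 and 688 RPM (distance 0.0254), miR-146b-5p at 600.4 and 809 RPM (0.208) and miR-145-5p at 524 and 657 RPM (0.211).

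**Figure D3:**
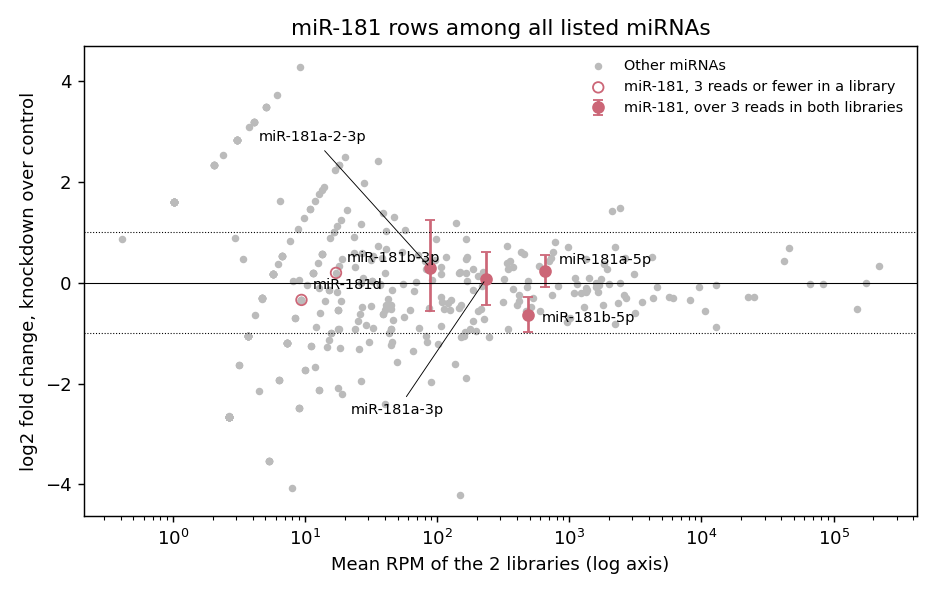
log2 fold change of knockdown over control against the mean RPM (log axis) for the other listed miRNAs (grey) and 6 miR-181 rows (red), without miR-181c-3p, which had 1 read in each library. Bars are 95% counting intervals of the ratio without a pseudocount, open circles had 3 reads or fewer in a library, and dotted lines mark 2-fold. With both libraries scaled to the same total, miR-181b-5p lies below 0 with its whole bar, and the bars of the other miR-181 rows shown with one cross 0. Scaling by the median ratio or the 75th percentile would move all bars up by 0.20 or 0.28.

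The ratio of the leading members does not depend on how the libraries are scaled against each other. For 1 unit of miR-181a-5p there was 0.982 of miR-181b-5p in control cells (0.749 to 1.29) and 0.541 in knockdown cells (0.450 to 0.648). The log2 ratio was thus lower by 0.86 in knockdown cells (difference -0.86, interval -1.34 to -0.39). Against all miR-181a rows together, the log2 ratio of miR-181b-5p differed by -0.83 (-1.27 to -0.39). This ratio was chosen for description after the values of its members were seen.

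Other miRNAs that share a seed were set beside this pair. Among the 84 miRNAs with at least 50 reads in both libraries, 73 had a RefSeq sequence under the same name, and these formed 45 pairs with identical bases 2 to 8, over 14 seeds. The median size of the difference between the log2 fold changes of a pair was 0.32, and the value of 0.86 for miR-181a-5p and miR-181b-5p ranked number 4 of the 45. The 3 larger ones each involved let-7d-5p, which was at 452 and 238 RPM. The interval of the miR-181 pair, 0.39 to 1.34, covers the values of the pairs ranked 1 to 21, so that its exact place is not resolved at this depth. In 64.4% of the pairs the counting interval left out 0, so that the miR-181 pair shared this property with most same-seed pairs while its size was among the larger ones. Pairs of the same family share members and are not independent. The pairs also differ widely in reads and were not matched for depth. Counting error adds more to the size of a difference where reads are few.

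**Figure D4:**
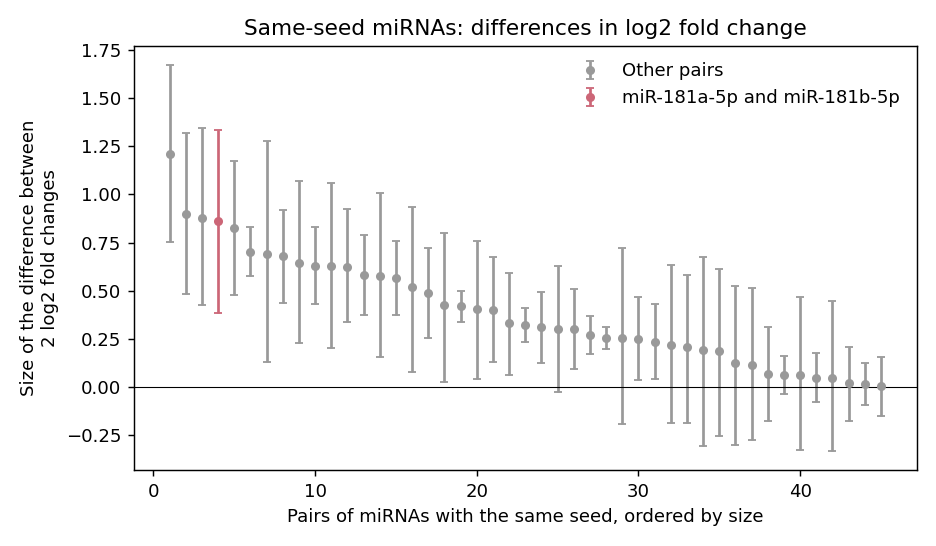
Size of the difference between the log2 fold changes of 2 miRNAs with the same seed, for 45 pairs ordered from the largest, with 95% counting intervals. The miR-181 pair (red) is number 4, at 0.86 (0.39 to 1.34), an interval that covers the values of many other pairs.

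The proportion of the miR-181a arms differed between the libraries by less than counting error. miR-181a-5p exceeded miR-181a-3p by 2.63 times in control cells (1.83 to 3.83) and by 2.92 times in knockdown cells (2.36 to 3.62). The difference of the log2 ratios was 0.15 (-0.48 to 0.76). With both 3p products in the denominator, the ratios were 1.95 and 2.07, which allows for the fact that miR-181a-5p comes from both loci. For miR-181b the 5p product exceeded miR-181b-3p by 37.0 times in control cells and by 20.7 times in knockdown cells. As this rests on 3 reads of miR-181b-3p in control cells, the interval of the log2 difference of -0.84 ran from -3.39 to 1.20.

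The 3p products of the miR-181a hairpins on chromosomes 1 and 9 were also set side by side. Their ratio compares strands of different sequence, and whether it follows the output of the loci was not tested. miR-181a-3p exceeded miR-181a-2-3p by 2.87 times in control cells (1.56 to 5.56) and by 2.46 times in knockdown cells (1.74 to 3.51), with a log2 difference of -0.22 (-1.31 to 0.81). A difference in this ratio was not detectable at this depth. For miR-181b no such comparison could be made, since miR-181b-2-3p has no row in either library.

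Of 29 hairpins with more than 3 reads of each arm in both libraries, paired by name, miR-181a had the fifth smallest difference in arm ratio, with 4 smaller. The median size of this difference was 0.55 and the range -1.79 to 1.75 on the log2 scale. The interval of miR-181a, -0.48 to 0.76, includes the median size, so that its place is not resolved at this depth. The counting interval left out 0 for 24.1% of the 29, and miR-181a was not among them. The arms of miR-181a were also more even than those of most hairpins, with a log2 ratio of 1.39 in control cells against a median size of 3.17.

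**Figure D5:**
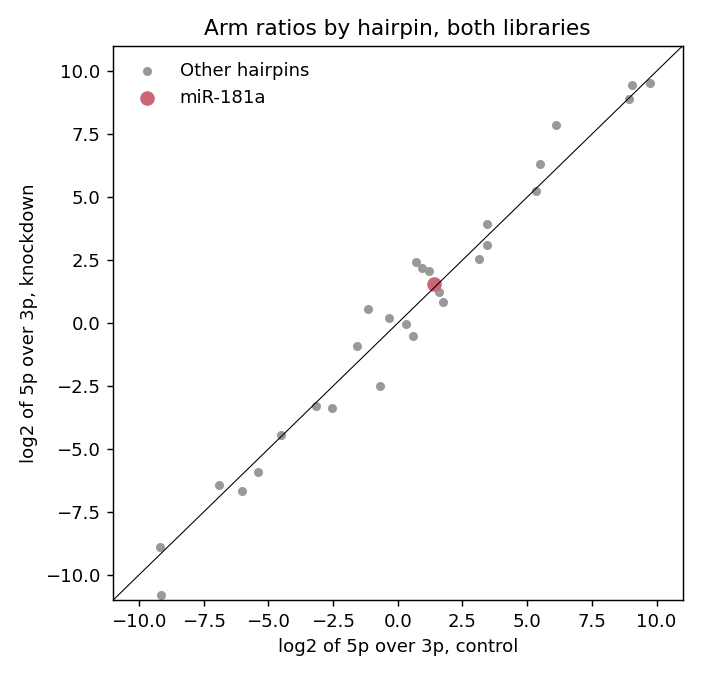
log2 of the 5p over the 3p product in control cells (x axis) and in knockdown cells (y axis) for 29 hairpins. The line marks equal ratios. miR-181a (red), at 1.39 and 1.54, lies close to the line.

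Other conserved families with several loci gave the scale of the family total. The miR-30 family, 10 rows and mainly the 5p product of miR-30a, summed to 85427 and 80916 RPM, a log2 fold change of -0.08. Its difference from the miR-181 total was 0.0013 (-0.20 to 0.21). The miR-26 family, 2 rows, summed to 3285 and 2738 RPM, a log2 fold change of -0.26, and the miR-181 total differed from it by 0.19 (-0.06 to 0.43). Both intervals include 0, so that a difference from either family was not detectable at this depth. The miR-181 total was the smallest of the 3.

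LOC550643 was searched for seed matches because the study asks which miRNAs bind it. The isoforms V1, V2 and V3 of 718, 581 and 476 bases, as the study mapped them, were searched on the sense strand for the reverse complement of each seed. No isoform held TGAATGT, the match to bases 2 to 8 of the 5p products, nor GAATGT, the match to bases 2 to 7. Among 7822 GENCODE 29 long non-coding transcripts of 646 to 790 bases, TGAATGT was found in 6.49% and GAATGT in 19.5%. These lengths were set around that of V1, so that the shares are not matched to the shorter V2 and V3. No match to bases 2 to 8 of any 3p product was found either. A match to bases 2 to 7 was found once in each isoform for miR-181c-3p (GATGGT, in 17.8% of those transcripts) and once for miR-181b-3p (CAGTGA, in 29.7%). In V1 these lie at bases 611 to 616 and 632 to 637, and the matches are shown in capitals with 11 bases on each side.
miR-181c-3p match: aatgcctgtgaGATGGTcctgcagcagc
miR-181b-3p match: cagcagccaacCAGTGAactcttttggt
In GRCh38 they are at chrX:56817462-56817467 and chrX:56817483-56817488 on the plus strand, in exon 3 of transcript NBDY-201 (NBDY is the GENCODE name of this gene), in the part annotated as its 3′ UTR. An A follows CAGTGA, opposite base 1 of miR-181b-3p, and sites that count this base were not searched for. A match to bases 2 to 7 describes the letters of the sequence and does not show binding. The same letters also match miR-181b-2-3p, which shares the seed of miR-181b-3p and has no row in either library. The listed miRNAs with such a match were among the 3 lowest rows of the family, at 1 read and 1 read for miR-181c-3p and at 3 reads and 9 reads for miR-181b-3p.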

How the data were processed

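Small RNA of MDA-MB-231-IV2-1 cells was sequenced in 1 library per condition. In the study's methods the NEBNext small RNA kit and a MiSeq were used, while the labels describe a DNA sample kit, a MiSeq reagent kit and a HiSeq. Mature miRNAs were quantified with a tool of the authors, who deposited RPM values in 1 table per condition. The submitters' processing notes name cutadapt, FastQC and hg38. Not given in the sources used here are the aligner settings, the miRNA release and whether low values were removed. The deposited RPM sum to 999996 and 999845.

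The values were rescaled to 1000000, missing rows counted as 0, and log2 fold changes were taken with a pseudocount of 1 RPM, which understates the change of low rows. The step of 1 read was the largest at which at least 85% of values up to 20 reads were whole, refined by least squares. Smaller steps, such as those of reads split between products, would give a greater depth. Of 253 such values in control cells 92.9%, and of 224 in knockdown cells 91.5%, lay within 0.1 read of a whole number, too few to treat the tables as counts, so that no count model was fitted. The intervals below still rest on these estimated reads, rounded, and are exact only where a value lies on a whole read, as all family values do. Log2 intervals come from the share of a miRNA's pooled reads that were from knockdown cells, without a pseudocount, and those of ratio differences from the exact conditional odds ratio. Clopper-Pearson intervals treat reads as independent molecules.

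The step of 1 read, the 2-fold calls and the counting intervals of fold changes were tested on simulated libraries drawn from these values. These held no variation between cultures, so that the test covers counting error only. The calls were tested at a mean of at least 100 RPM, and the intervals at 20 or more pooled reads. The intervals of miR-181b-3p, miR-181d and miR-181c-3p, which had fewer, were thus not covered, nor were those of shares and ratio differences. The members, lists and tests were chosen with earlier results of these data known. The rule for names in the text was all listed miR-181 rows, all miR-181 products in RefSeq, the 3 miRNAs nearest to miR-181a-5p, and lists of epithelial, blood cell and MDA-MB-231 miRNAs. Outside this rule, let-7d-5p and miR-30a were named after their values were seen. The alternatives covered scaling, pseudocount, low rows and the fold threshold. Those for members other than miR-181a-5p and for the ratio of miR-181b-5p to miR-181a-5p, and the intervals under other scalings, were added after the data were seen. Python 3.11.15, numpy 2.4.6, scipy 1.17.1 and pandas 2.3.3 were used, with GENCODE 29 and RefSeq (GRCh38.p14) for loci and sequences.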

Additional observations from a re-analysis of the deposited data

How the results depend on the processing

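No paired analysis was possible because only 1 library was made per condition, and no replicate could be left out. The scaling between the libraries decided which counting intervals left out 0. The log2 fold change of the family total changed sign, to 0.12 (-0.08 to 0.32) with median-of-ratios scaling and 0.21 (0.0060 to 0.41) with 75th-percentile scaling. That of miR-181a-5p was 0.43 (0.12 to 0.75) and 0.51 (0.20 to 0.83), both above 0. That of miR-181b-5p was -0.43 (-0.78 to -0.08) and -0.35 (-0.70 to 0.00097), the latter no longer below 0. These scalings raised the median of all miRNAs from -0.20 to -0.0019 and 0.08. With the 5p products alone the total was at -0.14. Shares and ratios within a library cannot move with scaling. The difference of the log2 ratio of miR-181b-5p to miR-181a-5p was -0.84 with a pseudocount of 10 RPM, against -0.86. The number of members more than 2-fold lower was 0 in place of 1 under either scaling, at a pseudocount of 10 RPM, and without members of 3 reads or fewer in both libraries. It was 2 at 1.5-fold and 3 without a threshold, where 4 members were higher in place of 0. Without a threshold the share over all miRNAs was not taken. The depth limits statements on miR-181b-3p, miR-181c-3p and miR-181d.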
